A study of Homo sapiens with 3 samples.

Results

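Nucleolar ribosome biogenesis genes encode the proteins that transcribe ribosomal RNA in the nucleolus, cut and modify it, and fold it into the precursors of the small and large ribosomal subunits. RNA polymerase I makes the long precursor, small nucleolar ribonucleoproteins of the box C/D and box H/ACA types guide its methylation and pseudouridylation, and the small subunit processome and the 60S maturation factors process it further. The mRNAs of these genes are abundant in dividing cells, and that of NPM1, a nucleolar histone and ribosome chaperone, is among the most abundant. The comparisons below concern how C-to-U editing by an RBFOX2-APOBEC1 fusion was distributed over these mRNAs, and how far 3 replicates placed it at the same positions.

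The genes were chosen by symbol: NCL, NPM1, FBL, DKC1, BOP1, PES1, NOLC1, TCOF1, MKI67IP or NIFK, BYSL, NAT10, RRS1, UBTF, POLR1A to POLR1E, and the numbered NOP, NOL, UTP, GNL, RRP and NOC families. They held 206 of 40843 editing clusters, which were 73 of 14295 in replicate 1, 72 of 15181 in replicate 2 and 61 of 11367 in replicate 3. The clusters fell in 49 of 9904 gene names. In a RefSeq table of the assembly GRCh38.p14, 62 symbols meet the rule and 48 of them had a cluster, with UTP11 listed as UTP11L and NIFK as MKI67IP. RRP7B was listed in the clusters and is not in that table. No cluster was listed for BOP1, GNL1, GNL3L, NOC4L, NOL3, NOL4, NOL4L, NOP10, NOP53, PES1, POLR1C, RRS1, UTP25 and UTP4 under those symbols, although UTP4 had 3, 3 and 5 clusters under its older symbol CIRH1A, which the rule does not take. Since only clusters past the threshold were analysed, a gene without one is not thereby shown to be unedited or unexpressed.

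The samples were 3 replicates of 1 condition, lenti-X HEK293T cells (labelled HEK293XT, a human embryonic kidney line) of genotype WT that carried a doxycycline-induced fusion of RBFOX2 to APOBEC1. RBFOX2 is a splicing regulator that binds RNA, and APOBEC1 is a deaminase that converts C to U near the places where its partner binds, an approach called STAMP. The labels give 72 h as the time and name transient transfection as the treatment, while the growth protocol describes stable lines, and polyA RNA was sequenced. No sample without the fusion or with APOBEC1 alone was analysed here, so editing that does not depend on RBFOX2 cannot be told apart from editing that does. The study's text calls them biological replicates, and the labels do not say whether they came from separate cultures. A p-value between a pair of them sets their difference against counting error in the reads, not against the spread between cultures.

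Each cluster is a region in which edited positions are denser than a background model allows. Its edit fraction divides the edited C bases by the C bases covered by reads, both summed over the region, and its share of edited reads is the number of reads with an edit over all reads there. The member clusters held 745, 674 and 490 edited bases on 443, 406 and 314 edited reads in replicates 1, 2 and 3. They covered 88547, 81248 and 63108 C bases. As a share of the whole data set, members held 0.507% ± 0.0313 (SD, n = 3) of the clusters and 0.658% ± 0.0689 of the edited bases. They also held 0.772% ± 0.0798 of the covered C bases, more than their share of edited bases in each replicate. Edited over covered C bases, pooled over clusters, were 0.841%, 0.830% and 0.776% for members. For all clusters they were 0.939%, 0.934% and 0.997%. Members without NPM1 lay close to all clusters, at 0.937%, 0.935% and 0.979%.

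**Figure D1:**
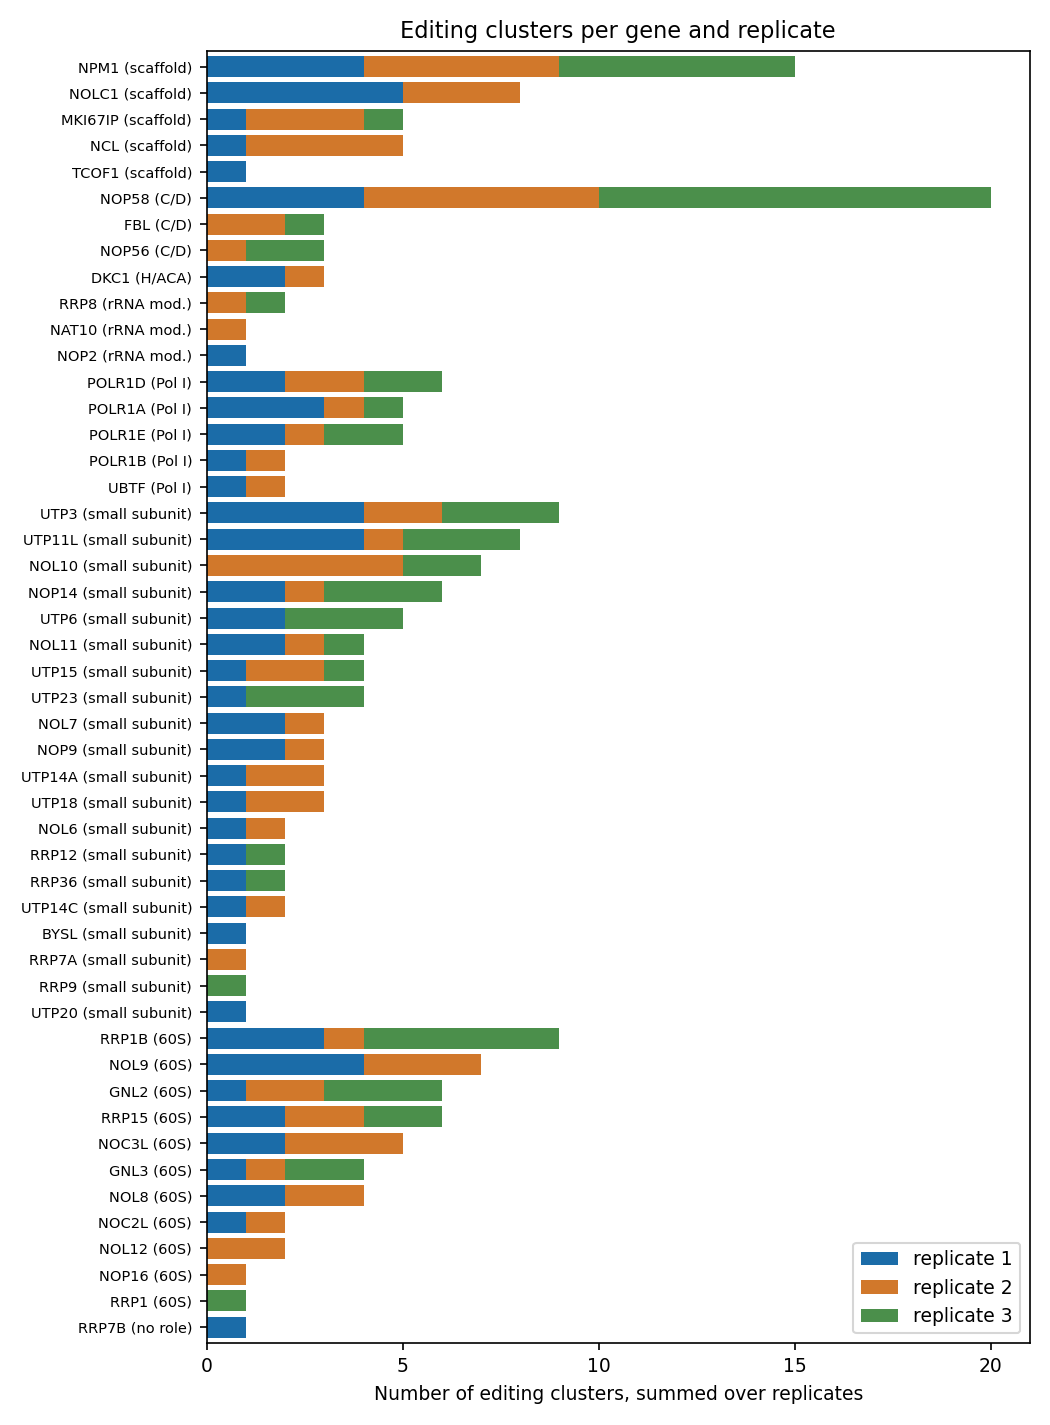
Number of editing clusters in each of the 49 genes (horizontal axis, summed over replicates), with colours for replicates 1, 2 and 3 and genes grouped by role. NOP58 has 20 clusters and NPM1 15, and 19 genes have 2 clusters or fewer.

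The nucleolar chaperones and scaffolds held 34 clusters in 5 genes, and NPM1 held most of their editing. NPM1 had 4, 5 and 6 clusters in replicates 1, 2 and 3, with 274, 213 and 185 edited reads. It thereby accounted for 672 of the 1163 edited reads of all member clusters (57.8%), and for 51.9%, 47.3% and 53.5% of the edited bases in the 3 replicates. NPM1 also held 56.9%, 53.3% and 63.1% of the covered C bases of the members, more than its share of edited bases in each replicate. Of the 12 member clusters with at least 10 edited reads, 9 were in NPM1.

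The main NPM1 locus lay on the plus strand of chromosome 5, from 170837561 to 170837891 (hg19, coordinates as deposited), in the exon numbered 20, the most 3′ region of NPM1 with a cluster. Its edit fraction was 0.866%, 0.760% and 0.739% in replicates 1, 2 and 3 (0.788% ± 0.0677, SD, n = 3). The edited reads numbered 227 of 3854, 196 of 3585 and 140 of 2811, which are shares of 5.89% (Wilson 95% interval 5.19 to 6.68), 5.47% (4.77 to 6.26) and 4.98% (4.24 to 5.85). The 3 intervals overlap, and no pair of replicates differed by two-sided Fisher's exact test, with an adjusted p of 1 in each pair. Replicates 1 and 3 each placed 2 clusters here and replicate 2 a single longer one, so that a read reaching both clusters is counted in each. The clusters compared covered 240, 330 and 285 bases in replicates 1, 2 and 3. The first cluster of replicates 1 and 3 had the same boundaries, 170837561 to 170837651, with edit fractions of 0.699% and 0.671%. The deposited numbers of NPM1 run over exons and introns together, with the intron numbered 19 between the exons numbered 18 and 20. They are therefore not counts of exons.

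A further NPM1 locus lay from 170833581 to 170833701, upstream of the first in the exon numbered 16. Its edit fraction was lower, at 0.505%, 0.427% and 0.552% (0.495% ± 0.0629, SD, n = 3), so that the replicates of the 2 loci do not overlap. The share of edited reads was 2.09% in replicate 1 (38 of 1814, interval 1.53 to 2.86), 0.479% in replicate 2 (15 of 3132, 0.290 to 0.789) and 1.00% in replicate 3 (26 of 2592, 0.685 to 1.47). Replicate 1 was higher than replicate 2 by 1.62 percentage points (Fisher's exact test, adjusted p = 0.000269), and the other 2 pairs did not pass (adjusted p = 0.350 and 0.764). This was the call at 1 of the 5 member loci, where 0.631% of the loci of the whole data set were called in any pair. Counted by edited bases over covered C bases, no pair at this locus passed Fisher's exact test (lowest adjusted p = 1). Replicates 2 and 3 each had 2 clusters in the locus and replicate 1 had 1, so that a read reaching both clusters is counted in each. The clusters compared covered 120, 60 and 90 bases in replicates 1, 2 and 3, so the shares belong to different stretches of the locus. The reads there also gave little C coverage, 315, 251 and 228 reads per C base against a mean depth of 1567, 1501 and 1194. The part of any of these features in the difference was not tested.

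The remaining NPM1 clusters were smaller. Replicates 1 and 3 shared a locus next to the last, from 170833476 to 170833521, with edit fractions of 0.362% and 0.561%. Replicate 3 alone had a cluster in the exon numbered 18, at 0.340%. Replicate 2 had the only intronic NPM1 clusters, with edit fractions of 5.26% and 5.88% that each rest on 1 edited base.

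NPM1 has processed copies in the genome that are nearly identical in sequence, and how reads were divided among them is uncertain. Clusters were listed for the copies NPM1P6 and NPM1P27 in all 3 replicates. NPM1P6, listed as an intron of CLVS1 and NPM1P6, had 2 clusters in each replicate with 125, 62 and 38 edited reads and edit fractions between 0.321% and 0.533%. NPM1P27 had 2 clusters in each replicate with 15, 16 and 13 edited reads and edit fractions between 0.893% and 2.98%. Of these reads, 14, 13 and 10 lay in an intronic cluster that is also listed with FAM172A and other genes. The exonic cluster listed with NPM1P27 alone had 1, 3 and 3. These clusters are not among the members.

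**Figure D2:**
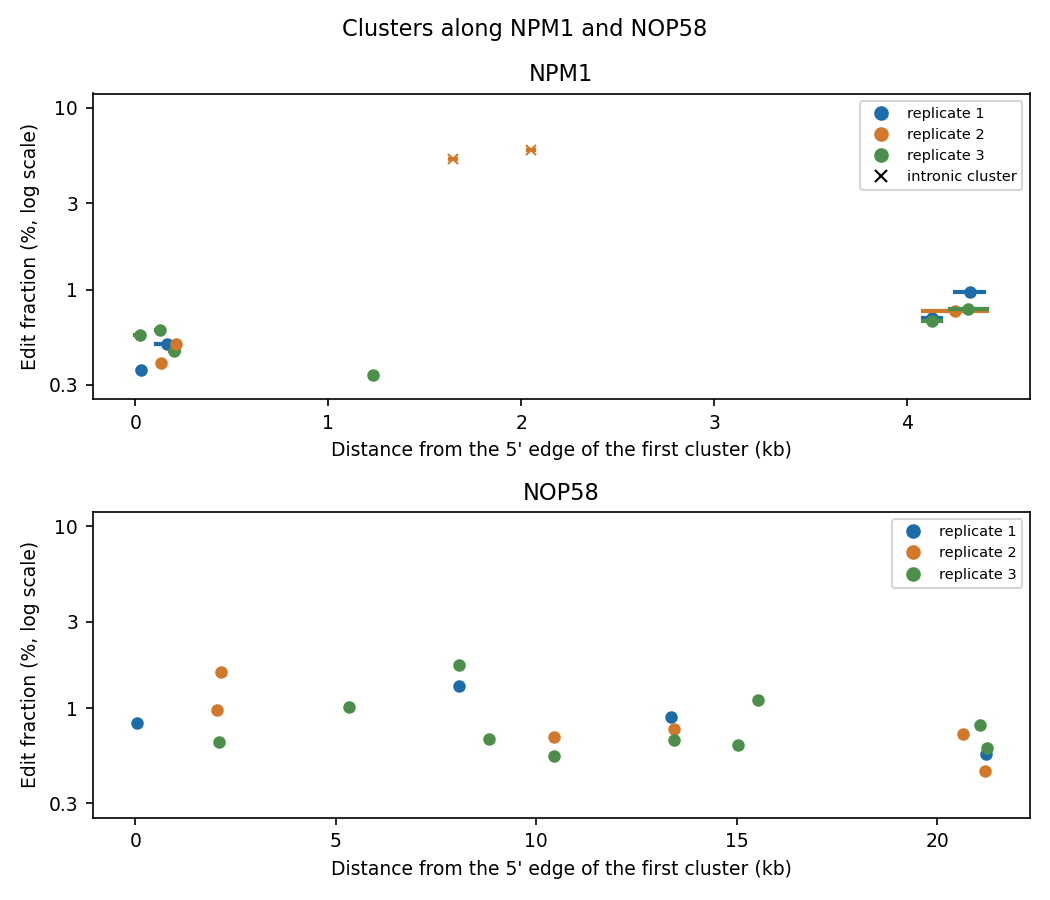
Edit fraction (vertical axis, %, log scale) of each cluster of NPM1 (upper panel) and NOP58 (lower panel) against distance along the gene in kb from the first cluster, with a bar for the width of the cluster and colours for replicates 1, 2 and 3. The NPM1 clusters gather at both ends of the plotted stretch, which begins in the exon numbered 16 and not at the 5′ end of the gene. The 2 intronic clusters of replicate 2 lie near 5.26% and 5.88%. The NOP58 clusters are spread along their plotted stretch.

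Of the other scaffold proteins, NOLC1, which binds small nucleolar ribonucleoproteins, had 5, 3 and 0 clusters in replicates 1, 2 and 3, all in the exon numbered 24 on chromosome 10. Its strongest clusters each had 12 edited reads, of 484 in replicate 1 (edit fraction 0.609%) and of 199 in replicate 2 (0.853%), and these 2 did not overlap. Replicates 1 and 2 shared 2 NOLC1 loci, of which one joins the 12-read cluster of replicate 2 to a cluster of replicate 1 with 2 edited reads of 119 (1.13%). The other begins at 103922528 in both replicates, with edit fractions of 1.00% and 0.543%. The next genes were singled out after their values were seen. NCL, which encodes nucleolin, an abundant protein that binds ribosomal RNA precursors, had 1, 4 and 0 clusters. One NCL cluster of replicate 2 had an edit fraction of 7.69% from 2 edited bases, at a mean depth of 351 with almost no C coverage. MKI67IP, which binds the proliferation marker Ki-67, had 1, 3 and 1 clusters, with edit fractions from 0.556% to 0.901%, at positions that did not overlap. TCOF1, the gene of treacle, had 1 cluster, in replicate 1, at 0.515%.

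The box C/D proteins bind the RNAs that guide ribose methylation, and their 3 genes held 26 clusters. NOP58, a core protein of these particles, had the most clusters of any member, with 4, 6 and 10 in replicates 1, 2 and 3 and 18, 29 and 34 edited reads. Its edit fractions ran from 0.451% to 1.73%, over regions numbered 9 to 37 on chromosome 2. Clusters of NOP58 were most numerous in replicate 3, the replicate with the fewest clusters over all genes.

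NOP58 held 2 loci found in all 3 replicates, both on the plus strand of chromosome 2. At the first, 203160412 to 203160560 in the exon numbered 25, the edit fraction was 0.892%, 0.771% and 0.667% (0.777% ± 0.112, SD, n = 3), from 7 of 253, 8 of 251 and 5 of 164 edited reads. The clusters of replicates 1 and 3 did not overlap each other and were joined through that of replicate 2. At the other, 203168244 to 203168334 in the exon numbered 37, the edit fraction was 0.562%, 0.451% and 0.608% (0.540% ± 0.0807, SD, n = 3), from 7 of 244, 9 of 299 and 4 of 115 edited reads. The shares of edited reads lay between 2.77% and 3.48% at both, and no pair of replicates differed (Fisher's exact test, adjusted p = 1 in each). The intervals of these shares reach from 1.31% to 8.60%, so that differences within that width were not detectable at this depth.

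FBL, the methyltransferase of the box C/D particle, had 0, 2 and 1 clusters. Replicates 2 and 3 called the same region, 40325113 to 40325158 on chromosome 19, with 5 of 390 and 8 of 328 edited reads and edit fractions of 0.559% and 1.11%. NOP56, the partner of NOP58, had 0, 1 and 2 clusters, and its intronic cluster in replicate 2 is also listed with small nucleolar RNAs encoded there. The box H/ACA group was DKC1 alone, the pseudouridine synthase dyskerin, with 2, 1 and 0 clusters. At its shared locus from 154005494 on chromosome X, the edit fraction was 0.555% in replicate 1 (4 of 204 reads) and 0.745% in replicate 2 (2 of 152 reads).

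Enzymes that modify ribosomal RNA held 4 clusters in 3 genes. RRP8, a methyltransferase, had 0, 1 and 1 clusters at different positions, with edit fractions of 1.74% and 1.49%, each from 2 edited reads. NAT10, an acetyltransferase, and NOP2, a methyltransferase, had 1 cluster each.

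The RNA polymerase I genes held 20 clusters in 5 genes, with a median edit fraction of 1.59% at a median depth of 21.5 reads. POLR1D, a subunit shared with RNA polymerase III, had 2 clusters in each replicate, with 4, 7 and 5 edited reads. Its 6 clusters had edit fractions from 0.532% to 1.59%, and none overlapped that of another replicate. POLR1A and POLR1E, subunits of the polymerase, had clusters in all 3 replicates as well, and POLR1B and UBTF, a factor that binds ribosomal DNA, in replicates 1 and 2.

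The small subunit processome and 40S maturation factors formed the largest group, with 20 genes and 71 clusters at a median edit fraction of 1.60%. UTP3 (also known as SAS10) had the most editing among them, with 4, 2 and 3 clusters and 10, 7 and 6 edited reads. It held the remaining locus found in all 3 replicates, 71555681 to 71555831 on the plus strand of chromosome 4, in the exon numbered 0. The edit fraction there was 2.59%, 2.64% and 1.25% (2.16% ± 0.791, SD, n = 3), the highest of the 5 loci. It rests on 4 of 75, 3 of 81 and 5 of 121 edited reads, and the shares of edited reads, 5.33%, 3.70% and 4.13%, did not differ in any pair (Fisher's exact test, adjusted p = 1 in each). The intervals of these shares reach from 1.27% to 12.9%, so that differences within that width were not detectable at this depth. Replicate 2 had 17 edited bases on its 3 edited reads. Replicate 3 had 2 clusters in this locus, with edit fractions of 0.995% and 1.67%, so that a read reaching both is counted in each. The first of them did not overlap the cluster of replicate 1, so the replicates are compared over partly different regions. UTP11L had 4, 1 and 3 clusters of 0.676% edit fraction or more, and replicates 1 and 2 shared a locus from 38489877 on chromosome 1, at 2.50% and 3.03%.

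The 60S maturation factors held 47 clusters in 11 genes at a median edit fraction of 1.47%. RRP1B had 3, 1 and 5 clusters with 7, 2 and 12 edited reads, and 8 of its 9 clusters lay in the exon numbered 30 on chromosome 21. Replicates 1 and 3 shared a locus there from 45115351, with edit fractions of 0.537% and 0.883%, and replicates 1 and 2 another from 45115666, with 0.916% and 1.08%. GNL3, which encodes nucleostemin, had 1, 1 and 2 clusters, and replicates 1 and 3 called the same region at 0.718% and 1.52%.

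**Figure D3:**
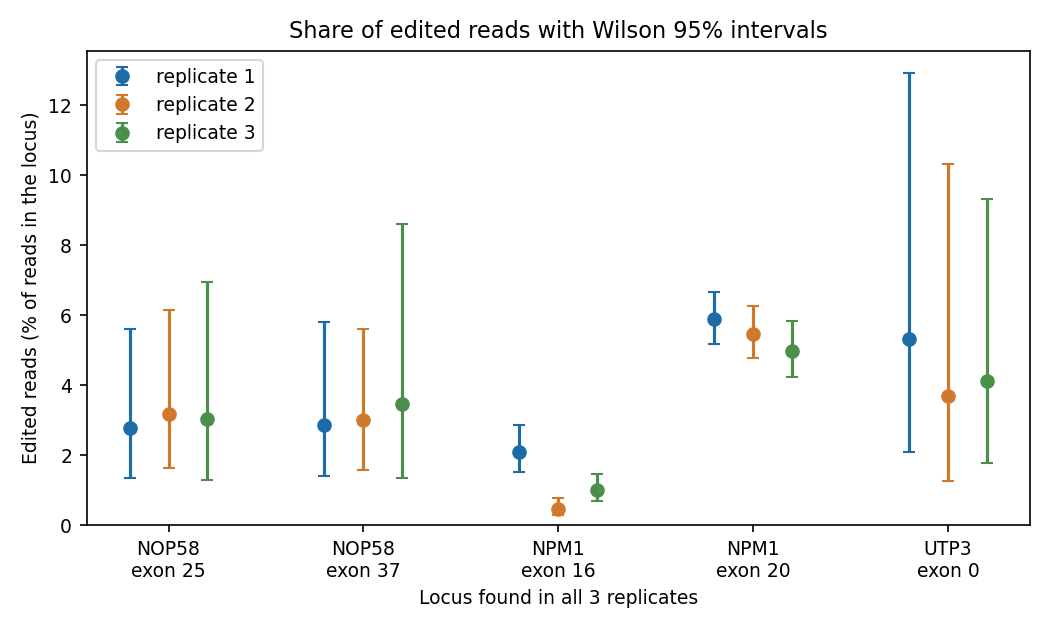
Share of edited reads (vertical axis, % of the reads in the locus) at the 5 member loci found in all 3 replicates, with Wilson 95% intervals as bars and colours for replicates 1, 2 and 3. The NPM1 locus in the exon numbered 20 lies near 5.45% in every replicate. The NPM1 locus in the exon numbered 16 is higher in replicate 1 than in replicate 2, over clusters of 120 and 60 bases. The intervals are widest at UTP3. The numbers are those deposited and are not counts of exons.

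Clusters recurred between replicates in few member genes. Clusters overlapping on the same strand by at least 1 base were joined into 172 member loci, of which 5 (2.91%) were found in all 3 replicates, 18 in 2 and 149 in 1. Over the whole data set 4.77% of 33244 loci were found in all 3. By clusters, 5, 6 and 6 of the member clusters of replicates 1, 2 and 3 overlapped clusters of both other replicates (6.85%, 8.33% and 9.84%), against 10.6%, 9.86% and 13.1% of all clusters. NPM1 supplied 3, 3 and 4 of these clusters, and without it the shares were 2.90%, 4.48% and 3.64% (mean 3.67% in place of 8.34%), with 3 loci left in all 3 replicates. The 18 loci found in 2 replicates lay in 14 genes, and in 3 of them (in NOP58, FBL and GNL3) both replicates gave the same start and end. When each of the clusters compared had to be covered to at least 50%, 3 loci were left in all 3 replicates and the mean share of clusters fell from 8.34% to 1.46%.

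By gene the overlap was wider. A cluster in every replicate was listed for 15 of the 49 genes (30.6%), against 37.9% of all genes: GNL2, GNL3, MKI67IP, NOL11, NOP14, NOP58, NPM1, POLR1A, POLR1D, POLR1E, RRP15, RRP1B, UTP11L, UTP15 and UTP3. Another 23 genes had clusters in 2 replicates, which is 46.9% of the members against 28.4% of all genes. Of these, 15 lacked one in replicate 3: DKC1, NCL, NOC2L, NOC3L, NOL6, NOL7, NOL8, NOL9, NOLC1, NOP9, POLR1B, UBTF, UTP14A, UTP14C and UTP18. RRP12, RRP36, UTP23 and UTP6 lacked one in replicate 2, and FBL, NOL10, NOP56 and RRP8 in replicate 1. Clusters of a single replicate were listed for BYSL, NOP2, RRP7B, TCOF1 and UTP20 (replicate 1), NAT10, NOL12, NOP16 and RRP7A (replicate 2), and RRP1 and RRP9 (replicate 3). Without replicate 3, which had the fewest clusters, 30 genes had a cluster in both remaining replicates.

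The median edit fraction of member clusters was 1.33%, 1.30% and 1.17% (1.27% ± 0.0870, SD, n = 3), below the 1.64%, 1.65% and 1.80% of all clusters (1.70% ± 0.0909). The ranges of the 2 sets do not overlap. Member clusters were also deeper, with a median depth of 36.0, 53.8 and 46.3 reads against 25.1, 24.7 and 21.1. The edit fraction falls with depth in clusters that passed the threshold, so members were compared with all clusters of the same depth and replicate. At a depth of 50 to 100 reads the median was 0.822% ± 0.0704 for members and 0.925% ± 0.0120 for all clusters, and at 100 to 500 it was 0.651% ± 0.0822 and 0.644% ± 0.0103. Over 8 depth classes, the median ratio of a member cluster to the median of its class was 0.893, 1.03 and 0.968 (0.962 ± 0.0667, SD, n = 3), which differs from 1 by less than the spread between replicates. Without NPM1 the ratio was 0.889, 0.983 and 0.952 (0.942 ± 0.0481), below 1 in each replicate. Above 500 reads members were higher, at 0.647% ± 0.0983 against 0.476% ± 0.0126. This class held 4, 7 and 6 member clusters, all of NPM1 in replicates 1 and 3 and 5 of 7 in replicate 2. Classes were set by mean depth, while the edit fraction rests on C coverage. In 2, 4 and 3 of the NPM1 clusters, coverage per C base was under 0.25 of the mean depth. In replicate 2 these included the intronic clusters at 5.26% and 5.88%, and an FBL cluster at 1.89% was also that low. The part of low C coverage in the higher value was not tested.

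**Figure D4:**
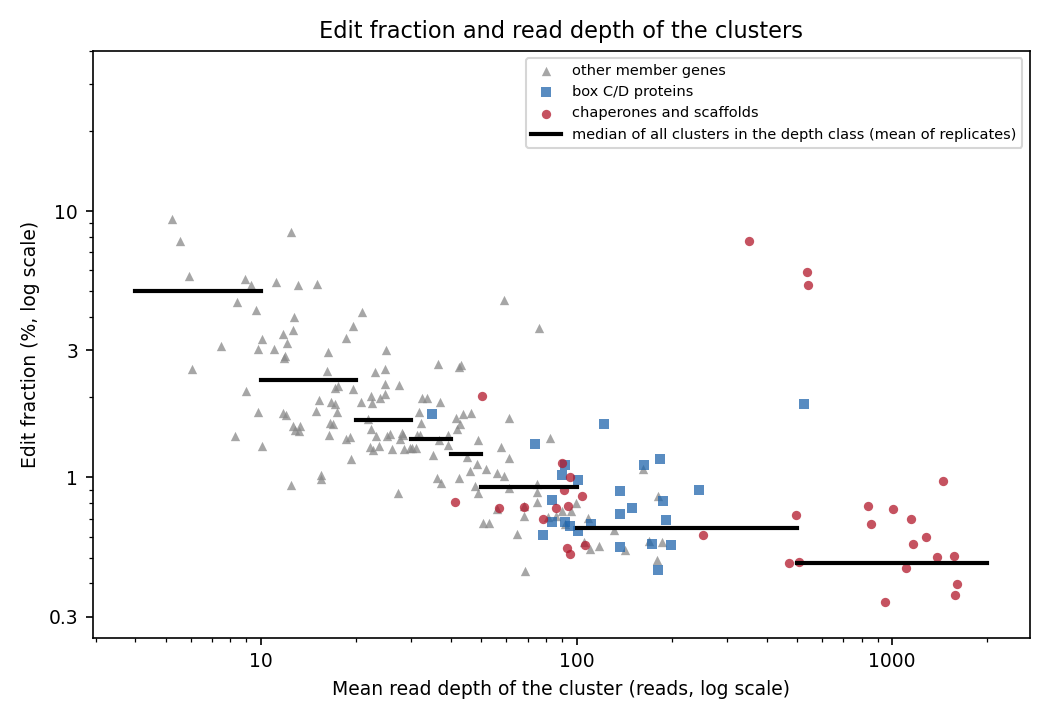
Edit fraction (vertical axis, %, log scale) against mean read depth (horizontal axis, reads, log scale) of the 206 member clusters, with symbols for chaperones and scaffolds, box C/D proteins and other genes. The black lines give the median of all clusters in each depth class, and the member clusters scatter around them, from 5.03% under 10 reads to 0.476% above 500.

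The amount of evidence behind a cluster was small in most member genes. Among the 206 clusters, 66 had 2 edited bases and 4 had 1. A single edited read carried all edits in 31.5%, 20.8% and 24.6% of member clusters, against 28.0%, 31.1% and 33.0% of all clusters. In 8, 2 and 2 member clusters 1 read carried at least 5 edited bases (11.0%, 2.78% and 3.28%, against 4.12%, 4.31% and 4.99% of all clusters), as in MKI67IP of replicate 3, with 9 edited bases on 1 read. An edited read of the members carried 1.63 ± 0.0646 edited bases on average (SD, n = 3), and one of all clusters 1.64 ± 0.0411. Coverage per C base under 0.25 of the mean depth occurred in 2, 9 and 4 member clusters (2.74%, 12.5% and 6.56%), against 2.34%, 2.96% and 1.94% of all clusters. NPM1 supplied 2, 4 and 3 of these, and without it the members had 0, 5 and 1 (0%, 7.46% and 1.82%).

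Introns held 1, 4 and 0 of the member clusters (1.37%, 5.56% and 0%), against 2.17%, 2.33% and 1.70% of all clusters. Exon numbers follow the coordinates, so that on the minus strand the exon numbered 0 is the most 3′ one. Only exonic clusters listed with 1 gene and 1 exon number were taken here. Minus-strand member clusters lay in the exon numbered 0 in 11 of 23, 12 of 31 and 10 of 17 cases (47.8%, 38.7% and 58.8%). In each replicate this was below the 64.7%, 59.8% and 61.7% of all minus-strand clusters taken in the same way.

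The other genes of the pathway, a list of 104 ribosome biogenesis genes outside the rule, held 148, 170 and 141 clusters in 86 genes, of which 37 had one in every replicate. Over the whole data set 3754 of 9904 genes (37.9%) had one in every replicate. Their median edit fraction was 1.36%, 1.37% and 1.87% (1.53% ± 0.292, SD, n = 3). Of their 371 loci, 20 were found in all 3 replicates, where 1586 of 33244 loci (4.77%) were over the whole data set. Among these 20 the most edited reads were in NHP2L1, a protein that binds box C/D RNAs, at 0.924%, 1.01% and 1.15% from 9, 13 and 4 edited reads. SBDS, a factor of 60S maturation, followed with 11, 3 and 5 edited reads at 1.11%, 1.33% and 2.89%, and then DDX21, a nucleolar helicase, with 3, 10 and 4 at 0.765%, 1.01% and 0.621%. These counts are far below the 227, 196 and 140 edited reads of the main NPM1 locus, which come from 3854, 3585 and 2811 reads. The mean edit fraction of that locus was not higher, at 0.788% against 1.03%, 1.78% and 0.798% at these loci of NHP2L1, SBDS and DDX21.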

How the data were processed

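RNA from 3 replicates of 1 condition was sequenced. The submitters' processing notes name STAR and the build hg19, with no version. The authors called C-to-U positions with SAILOR and clusters with FLARE, for each replicate on its own. The deposited counts per cluster (C bases, edited bases and covered C bases, reads and edited reads) are whole numbers without scaling, the deposited edit fraction is edited over covered C bases, the mean depth deposited is a coverage signal, and the authors' score is a probability from a negative binomial model. Library depths were not used here. Whether the deposited coordinates count from 0 or 1 could not be settled.

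Clusters of 1 strand that shared 1 base or more between replicates were joined into a locus. Edited and unedited reads at every locus found in all 3 replicates were compared in each pair by two-sided Fisher's exact test, with Benjamini-Hochberg adjustment over 4758 pairs and a threshold of 0.05. PCR copies were not told apart by molecular identifiers, so intervals and tests cover counting error only. Values are mean ± SD over replicates. SciPy 1.17.1, pandas 2.3.3 and NumPy 2.4.6 under Python 3.11.15 gave the values and matplotlib 3.10.9 the figures, and the code was tested on simulated data. Genes named with full values are those with a locus in all replicates, those with the most clusters, and the gene with the most edited reads of each role. The genes, roles and lists were chosen with earlier results of these data known, so the list as a whole has no test. Cluster sequences were not analysed here.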

Additional observations from a re-analysis of the deposited data

How the results depend on the processing

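With a minimum score of 0.99 there were 40.3 member clusters per replicate in place of 68.7, a median edit fraction of 1.36%, and 3 loci and 8 genes found in all replicates. With a minimum mean depth of 50 these were 31.7 clusters, 0.722% and 6 genes, and 14.8% of clusters were found in all replicates. With at least 2 edited reads the median was 1.08% and that share 11.2%. The share of all clusters is not given under these filters, so these member shares cannot be set against the unfiltered shares of all clusters. The median became a mean of 1.69%, a pooled edit fraction of 0.816%, and 1.77% among clusters under a depth of 50. An overlap of at least 50% gave a share of 1.46% and 3 loci. Leaving out each replicate in turn gave 16.7% to 19.8% of clusters, 10 to 12 loci and 19 to 30 genes found in all that remained, since fewer replicates have to share them. It gave 66.5 to 72.5 clusters, a median of 1.24% to 1.32%, and 0 to 1 loci called by Fisher's exact test. The NPM1 locus in the exon numbered 16 was called by Fisher's exact test without replicate 3 (adjusted p = 0.00042). It was not called without replicate 1 or 2, which removes the pair that differed. With edited bases 0 member loci were called, against 57 over the data set. The cause was not tested for the other changes. Taking only exonic clusters, or leaving out NOL3, NOL4, NOL4L and GNL1, which had no cluster, moved none of these values beyond the spread between replicates. Of the loci found in all replicates, 174 (11.0%) had identical boundaries in each, and none of these was among the 5 member loci. Chosen after seeing the data, a minimum coverage per C base gave a median of 1.31%, and leaving out NPM1 gave a median of 1.34%, a share of 3.67% of clusters and 3 loci found in all replicates. Edited reads over reads in place of the edit fraction gave 3.00% and 3.12% at the NOP58 loci, 1.19% and 5.45% at those of NPM1, and 4.39% at UTP3. No paired analysis was possible because there is 1 group.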
